A study of Saccharomyces cerevisiae with 4 samples.

Results

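Autophagy genes encode the machinery that wraps cytoplasm in a membrane sac and delivers it to the vacuole for breakdown. The 10 described here are ATG1, ATG7, ATG8, ATG9, ATG13, ATG14, ATG29, ATG33, ATG39 and ATG41, chosen by name from 7126 features of 1 expression table, and all 10 were among the 5642 features with a mean of at least 5 normalised reads. RNA was sequenced from budding yeast, Saccharomyces cerevisiae, of 1 strain, DPY438, with the genotype label Hsf1-AA. In such an anchor-away strain rapamycin is meant to carry Hsf1, the transcription factor of chaperone genes, out of the nucleus. A pair of groups stayed at 30 °C and a pair were moved to 39 °C for 10 min (heat shock), and in each pair 1 group had received rapamycin (1 µM, 45 min) and the other none. That makes 4 groups, and all of them carried the Hsf1 allele. Values in a row are given in the order 30 °C without rapamycin, 30 °C with it, heat shock without it and heat shock with it. Each group was 1 library, so there was no replicate check, and every difference below is one between libraries.

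In growing yeast the kinase complex TORC1 holds autophagy down by keeping Atg13 phosphorylated. Starvation, or rapamycin acting through its receptor Fpr1, lifts that hold in wild-type cells, so rapamycin can by itself act on the process that these genes serve. Many autophagy genes are also regulated at the level of their mRNA, with Ume6, Rph1 and Pho23 known as repressors. The labels do not say whether DPY438 carried changes that make TORC1 resistant to rapamycin. FPR1 was listed at 0 in all 4 libraries, as were 229 protein-coding features in all, so the 0 does not by itself show that the gene was absent. The mRNA of HSF1 read 157, 107, 288 and 225, which does not show where the protein was.

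The libraries held between 1561620 and 3231228 assigned reads, and 1 read was worth between 0.888 and 1.499 normalised reads. Values below are normalised read counts as deposited. Log2 ratios were taken after adding 1, and "past 2-fold" is a rule of size (1 on the log2 scale), not a test. Parentheses hold 95% intervals from the read numbers alone, without the added 1. They cover counting error only: they hold nothing of the variation between cultures, and PCR copies were not told apart by molecular identifiers. The comparisons share libraries with each other, so they are not independent.

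All 10 genes stood higher in both heat shock libraries than in both 30 °C libraries, against 35.9% of the 5642 features. The 10 genes and the lists below were chosen with earlier results of these data known. Their counts against all features are therefore a description, not a test. Without rapamycin, 9 of the 10 were past 2-fold higher in heat shock and none lower, where 19.8% of all features were higher and 19.3% lower. The median log2 ratio of the 10 was 2.21 and that of all features 0.02. With rapamycin 8 of 10 were past 2-fold higher and none lower, where 18.3% of all features were higher and 14.6% lower, and the medians were 1.49 and -0.00. Only ATG41 among the 10 went from past 2-fold to near its 30 °C level when rapamycin was present. Without ATG41, the summed normalised counts of the other 9 genes stood 3.62-fold (3.11 to 4.24) above 30 °C in the arm lacking rapamycin. In the rapamycin arm they stood 3.21-fold (2.82 to 3.66) above it.

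**Figure D1:**
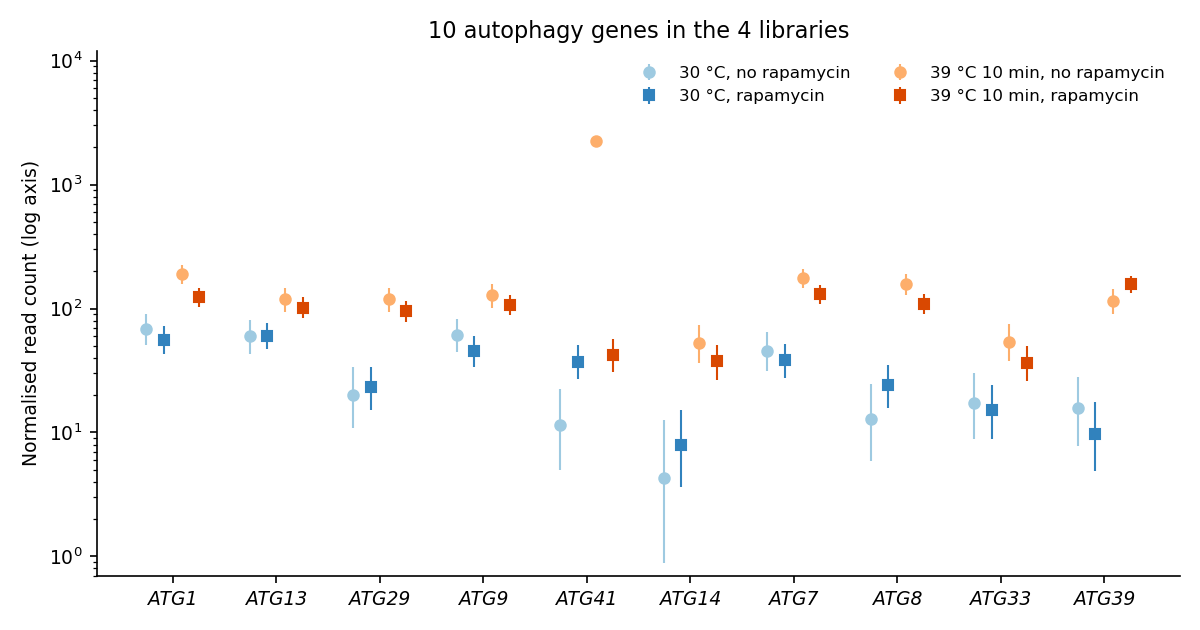
Normalised read counts (log axis) of the 10 autophagy genes, grouped by role, in each of the 4 libraries; points are single libraries and bars are 95% counting intervals. Both heat shock points lie above both 30 °C points for every gene, and ATG41 in heat shock without rapamycin stands apart at 2225.

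The kinase complex starts autophagy. ATG1 (YGL180W, chromosome VII, 160065 to 162758 in the R64 assembly), the gene of its kinase, read 68.6 at 30 °C without rapamycin, 56.0 at 30 °C with it, 189 in heat shock without it and 123 in heat shock with it. Both heat shock values were higher than both 30 °C values, 2.73-fold without rapamycin (1.96 to 3.92) and 2.18-fold with it (1.61 to 3.02). ATG13 (YPR185W, chromosome XVI, 907218 to 909434), the regulatory subunit that TORC1 phosphorylates, read 60.05, 60.4, 118 and 102 in the same order. It had the smallest heat shock ratio of the 10 without rapamycin, log2 0.97 (0.42 to 1.56), and 0.74 (0.30 to 1.21) with rapamycin, so it stayed under the size rule in both. ATG29 (YPL166W, chromosome XVI, 237338 to 237979), which joins Atg17 and Atg31 in the scaffold of the complex, read 20.02, 23.1, 118 and 95.1. Its 5.68-fold (3.33 to 11.3) and 3.99-fold (2.65 to 6.61) higher values in heat shock were the largest of these 3. ATG29 overlaps SET6 on the other strand, and without stated strand handling their reads cannot be told apart. SET6 itself read at most 2.86.

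ATG9 (YDL149W, chromosome IV, 184925 to 187918) encodes the membrane protein whose small vesicles seed the growing sac. It read 61.5, 45.3, 127 and 108, so heat shock stood 2.06-fold above 30 °C in the absence of rapamycin (1.42 to 3.07) and 2.35-fold in its presence (1.69 to 3.38). ATG9 was the one gene besides ATG39 whose heat shock ratio was larger with rapamycin than without, by 0.19 on the log2 scale, with an interval (-0.56 to 0.95) that holds 0. On library totals 7 of the 10 genes had the larger ratio with rapamycin, but there the median difference over all features was itself 0.90 (0.62 on protein-coding totals, also 7 of 10). Against the median of all features, 2 of the 10 lay above and 8 below on each of these 3 scales.

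ATG41 (YPL250C, also called ICY2, chromosome XVI, 74309 to 74719), whose small product binds Atg9, had a pattern of its own. It read 11.4 at 30 °C without rapamycin, 37.3 at 30 °C with it, 2225 in heat shock without it and 42.3 in heat shock with it. These values rest on 8, 42, 1484 and 44 reads. The heat shock library without rapamycin thus stood far above the other 3, which lay within a few-fold of each other. The heat shock ratio without rapamycin was 179-fold (98.5 to 451), number 5 from the top of the 5642 features, and with rapamycin it was 1.13-fold (0.725 to 1.77). In heat shock it was 51.4-fold lower with rapamycin than without (39.0 to 72.8), number 5 from the lowest. At 30 °C, in contrast, it was 3.08-fold higher with rapamycin (1.51 to 8.04). The difference between the heat shock ratios, with minus without rapamycin, was -7.31 on the log2 scale (-8.79 to -6.19), number 3 from the lowest. Of the reads that fell on the 10 genes in heat shock, ATG41 took 66.8% without rapamycin (exact Clopper-Pearson interval 64.8% to 68.7%) and 4.49% with it (3.28% to 5.99%). Those shares were 3.60% (1.57% to 6.98%) and 11.8% (8.61% to 15.6%) at 30 °C.

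**Figure D2:**
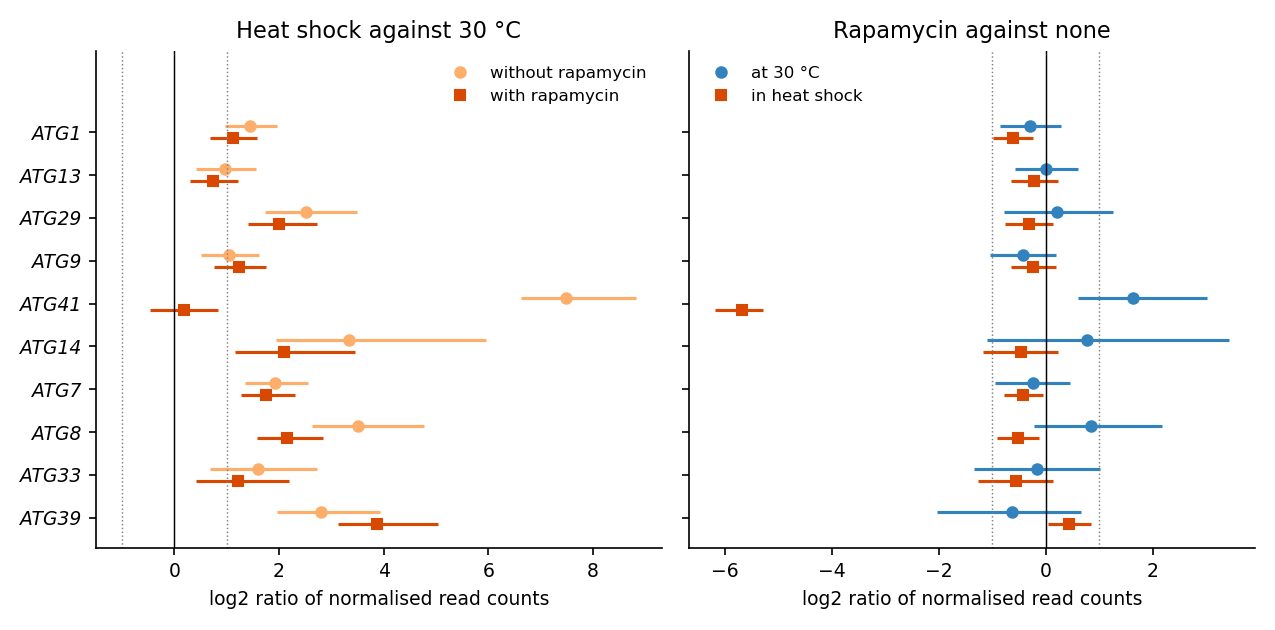
Log2 ratios of normalised read counts of the 10 genes, heat shock against 30 °C on the left and rapamycin against none on the right; lines are 95% counting intervals and dotted lines mark 2-fold. The markers of ATG41 lie farthest apart of the 10, at 7.48 and 0.18 on the left and at 1.62 and -5.68 on the right; on the left those of ATG8 (3.51 and 2.15), ATG14 (3.34 and 2.10) and ATG39 (2.80 and 3.87) are also more than 2-fold apart.

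The upstream region of ATG41 is shown because ATG41 was the gene of the 10 whose heat shock ratio was near 1 with rapamycin. The sequence is from the RefSeq copy of R64, the assembly that sacCer3 names, 250 bases before the start codon and the first 50 coding bases, chrXVI:74670-74969, minus strand, written 5′ to 3′. Capitals mark the one match to a pair of heat shock element units, the inverted repeats that Hsf1 binds (searched as GAANNTTC or TTCNNGAA, on both strands).
ATG41: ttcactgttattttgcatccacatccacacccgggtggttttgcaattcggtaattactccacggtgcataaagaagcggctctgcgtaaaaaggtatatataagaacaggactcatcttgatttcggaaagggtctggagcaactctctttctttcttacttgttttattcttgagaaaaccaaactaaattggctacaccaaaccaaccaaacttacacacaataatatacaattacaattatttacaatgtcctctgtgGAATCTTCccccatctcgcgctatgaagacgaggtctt
That match begins at coding base 13 and so lies inside the gene. A match of this kind occurs in 22.6% of the 6001 protein-coding windows of the same size, and in 1 of the 10 autophagy genes. The longer heat shock element of 3 alternating units occurs in 0.783% of windows and in none of the 10. In the 1000 bases before the start codon ATG41 had no pair of units, which 59.7% of such windows hold. Only 3 of the 10 genes had one there, ATG1, ATG9 and ATG13, so the absence was not particular to ATG41. Only these exact letters were searched, so the absence of a match does not show that Hsf1 has no site there.

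By the Euclidean distance between log2 ratios to the first library over the other 3 libraries, SSA4 was the protein-coding gene nearest to ATG41 of 5421 searched (distance 0.73). SSA4 is an Hsp70 gene known as a target of Hsf1. ROQ1, which encodes a regulator of the ubiquitin ligase Ubr1, followed at 2.01 and BTN2, the gene of a protein-sorting factor for misfolded proteins, at 2.29. The log2 ratio of SSA4 in heat shock was 7.95 without and -0.39 with rapamycin, and that of rapamycin 1.63 at 30 °C and -6.71 in heat shock. In the 300-base windows of these 3 genes, SSA4 had no pair of heat shock element units, ROQ1 had 2, of which 1 lay before the start codon, and BTN2 had 1, at -79. None of the 3 had the longer form. The gene upstream of ATG41, RPL36B, on the same strand and 979 bases away, was lower in heat shock, by a log2 ratio of -1.28 with and without rapamycin. With rapamycin RPL36B was higher, by a log2 ratio of 1.22 at 30 °C and 1.22 in heat shock. The downstream gene, YAH1, was higher with rapamycin by 0.88 and 0.67.

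ATG14 (YBR128C, chromosome II, 493081 to 494115) encodes the subunit that brings the phosphatidylinositol 3-kinase complex to the site where the sac forms. It read 4.29, 8, 52.5 and 37.5, from 3, 9, 35 and 39 reads, the lowest normalised counts of the 10 in the first 3 libraries; in heat shock with rapamycin ATG33 was lower. Both heat shock libraries were well above both 30 °C ones, but the folds are loosely bounded, 10.1-fold without rapamycin (3.86 to 62.2) and 4.27-fold with it (2.23 to 11.0).

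Atg8 is a ubiquitin-like protein that is joined to a membrane lipid and coats the sac, and Atg7 is the activating enzyme that starts this conjugation. ATG7 (YHR171W, chromosome VIII, 445713 to 447605) read 45.8, 38.2, 175 and 131. Its 3.77-fold (2.57 to 5.86) and 3.36-fold (2.41 to 4.94) higher values in heat shock were alike without and with rapamycin, with a difference of -0.17 on the log2 scale (-0.97 to 0.63). ATG8 (YBL078C, chromosome II, 80378 to 80731) read 12.9, 24.0, 157 and 110, from 9, 27, 105 and 114 reads. Heat shock went with an 11.4-fold higher value (6.21 to 27.5) when rapamycin was absent and a 4.42-fold higher one (2.98 to 7.23) when it was present. After ATG41 it had the largest ratio of the 10 without rapamycin. The difference of its log2 ratios, -1.37 (-2.76 to -0.20), was past the size rule; it was -0.54 on library totals and -0.81 on protein-coding totals, where the median over all features was 0.90 and 0.62.

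The ATG8 window is shown because it held more motif matches than that of any other of the 10 genes, chrII:80682-80981, minus strand of R64 as in RefSeq, written 5′ to 3′. Capitals mark the matches. From left to right, the first is the core of the Gcn4 site on the other strand. The next run holds 2 overlapping cores of the site of Ume6, the repressor. Then the stress response element stands at 2 places, the letters that Msn2 and Msn4 bind and that resemble the Rph1 site. The last is a GATA factor site.
ATG8: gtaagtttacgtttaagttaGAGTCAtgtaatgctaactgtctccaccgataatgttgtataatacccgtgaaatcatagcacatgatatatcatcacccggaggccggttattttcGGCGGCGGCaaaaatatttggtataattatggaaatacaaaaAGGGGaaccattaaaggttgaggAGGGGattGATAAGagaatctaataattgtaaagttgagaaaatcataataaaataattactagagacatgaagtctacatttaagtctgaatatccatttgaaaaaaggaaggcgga
GGCGGC, the Ume6 core, began at -133 and -130 from the start codon. It occurs in 5.13% of all windows and in ATG8 alone among the 10 genes. AGGGG, the stress response element, began at -91 and -68. It occurs in 21.6% of all windows and in 3 of the 10, ATG8, ATG9 and ATG29. TGACTC, the Gcn4 core, was in 3 of the 10 against 7.98% of all windows and GATAAG in 4 of the 10 against 14.7%. The Gcn4 match in ATG13 ran from -5 to 1 and so reached into the start codon. Both strands were searched, a match is a description of the letters only, and in ATG8 no 2 different motifs overlapped.

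The protein-coding genes nearest to ATG8 in pattern were CAT8, an activator gene of gluconeogenesis, RNY1, a vacuolar ribonuclease gene, and CRC1, a mitochondrial carnitine carrier gene. Their distances were 0.16, 0.19 and 0.28. RNY1 read 24.3, 48.9, 303 and 219.

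**Figure D3:**
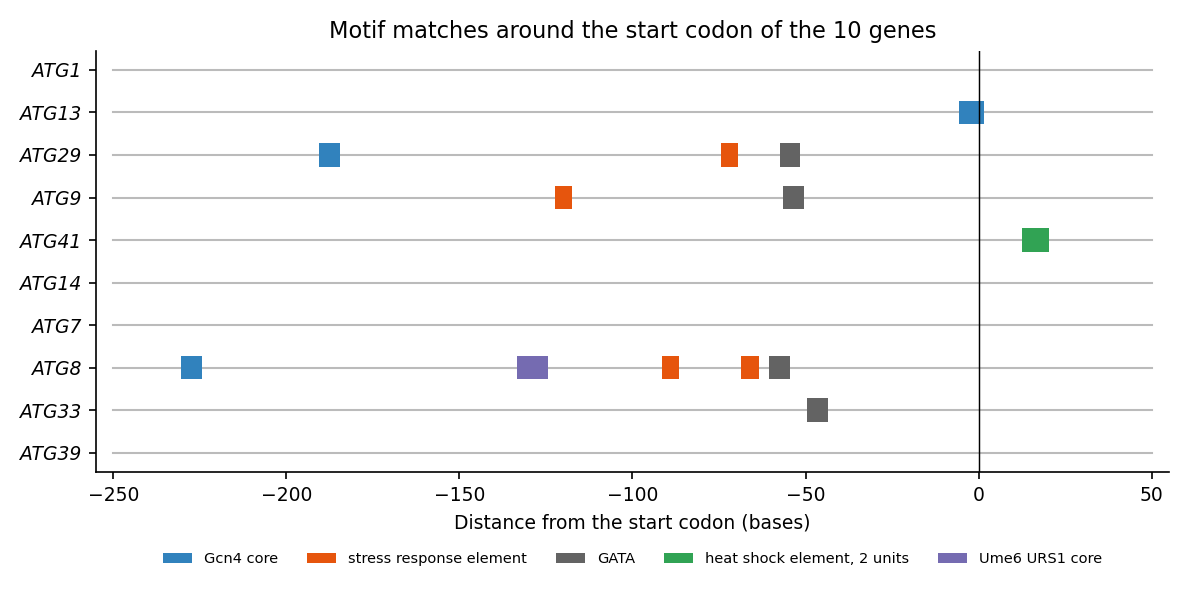
Positions of the motif matches relative to the start codon in the 300-base windows of the 10 genes; blocks are matches on either strand, the Ume6 block of ATG8 being 2 that overlap, and the vertical line is the start codon. ATG8 holds matches to 4 of the searched motifs, and the heat shock element pair of ATG41 lies to the right of the start codon.

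ATG33 (YLR356W, chromosome XII, 840321 to 840914) encodes a mitochondrial outer membrane protein needed for the removal of mitochondria. It read 17.2, 15.1, 54.0 and 36.5, with heat shock ratios of 3.03-fold in the absence of rapamycin (1.60 to 6.64) and 2.33-fold in its presence (1.33 to 4.57).

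ATG39 (YLR312C, chromosome XII, 757637 to 758833) encodes the receptor that marks the nuclear envelope for autophagy. It read 15.7, 9.77, 115 and 157, from 11, 11, 77 and 163 reads. It was the only one of the 10 with its highest value in heat shock with rapamycin. Its ratio was 6.96-fold without rapamycin (3.88 to 15.3) and 14.6-fold with it (8.72 to 32.7), number 47 from the top of all features in the latter. The difference, 1.07 on the log2 scale, just passed the size rule, and its counting interval (-0.29 to 2.54) holds 0.

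The ATG39 window is shown beside the other sequences as one without any match to the motifs searched, chrXII:758784-759083, minus strand of R64 as in RefSeq, written 5′ to 3′ and therefore all in lower case.
ATG39: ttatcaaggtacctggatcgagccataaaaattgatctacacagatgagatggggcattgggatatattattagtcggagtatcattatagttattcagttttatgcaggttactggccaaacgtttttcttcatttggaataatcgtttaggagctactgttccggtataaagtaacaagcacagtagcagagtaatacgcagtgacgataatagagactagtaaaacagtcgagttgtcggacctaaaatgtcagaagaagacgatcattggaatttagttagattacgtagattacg
Farther out, AGGGG matched at -316 and -270 and GATAAG at -251, 1 base before the window, all on the other strand. The absence of letters in this window says nothing about the factors. In pattern, YOR292C (distance 0.21), ENA1 (0.43) and IRC4 (0.46) were nearest to ATG39. ENA1 encodes a sodium pump and has near-identical copies, so its reads are uncertain.

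At 30 °C, few of the genes differed between the libraries with and without rapamycin. ATG41 was past 2-fold higher and none of the 10 past 2-fold lower, where 4.70% of all features were higher and 4.02% lower. The other 9 log2 ratios lay between -0.64 and 0.85, and each of their counting intervals held 0. The summed normalised counts of those 9 were 1.09-fold lower with rapamycin (0.915 to 1.31). In heat shock, ATG41 was past 2-fold lower and no gene past 2-fold higher, where 2.46% of all features were lower and 4.56% higher. Of the other 9, 8 were lower with rapamycin by 0.22 to 0.62 on the log2 scale and ATG39 was higher by 0.44, but on library totals 6 of the 10 were above 0 and 4 below, and on protein-coding totals 4 above and 6 below. Those scalings move every gene alike, with a median over all features of 0.53 and 0.37 against 0.04 on the deposited scale. Against that median 9 of the 10 lay below and ATG39 above on all 3 scales, and the median of the 10 lay lower than it by a log2 difference of -0.49 on each.

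Between the heat shock ratios themselves, ATG41, ATG8 and ATG14 were past 2-fold lower with rapamycin and ATG39 past 2-fold higher, where 8.29% of all features were lower and 9.25% higher. The counting intervals of ATG41 and ATG8 left out 0 and those of ATG14 (-4.00 to 0.78) and ATG39 did not. On library totals ATG41 was the one gene of the 10 still past 2-fold lower, where 2.32% of all features were lower and 43.8% higher.

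**Figure D4:**
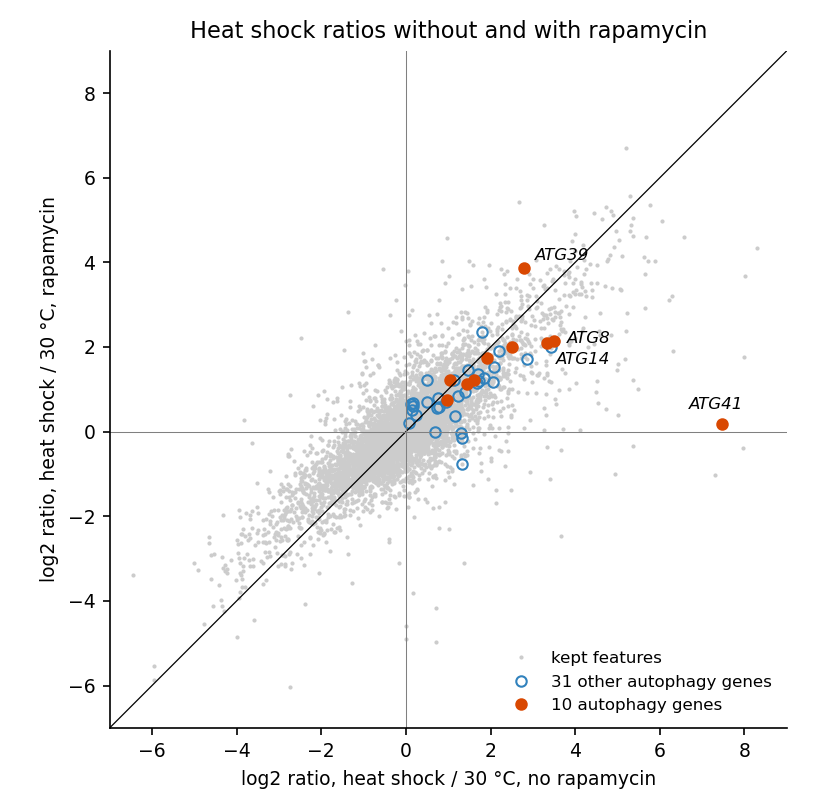
Heat shock log2 ratios without (x axis) and with rapamycin (y axis) for the 5642 kept features in grey, the 31 other autophagy genes as open circles and the 10 genes as filled circles; the diagonal marks equal ratios. ATG41, at 7.48 and 0.18, lies far from the diagonal.

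Levels between genes were compared per kilobase of coding length. At 30 °C without rapamycin they ran from 36.4 normalised reads per kilobase for ATG8 to 4.14 for ATG14, and no neighbours in the order were apart beyond their counting intervals. In heat shock without rapamycin the order began with ATG41 at 5413, ATG8 at 445 and ATG29 at 184 per kilobase, each apart from the next, and ended with ATG9 at 42.6. With rapamycin it began with ATG8 at 309, apart from ATG29 at 148, and ATG41 stood at 103. No stretch of 30 bases in any of the 10 genes recurred elsewhere in the genome.

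Of 31 further autophagy genes, all kept, 18 were past 2-fold higher in heat shock without rapamycin, where 19.8% of all features were, and 13 with it, where 18.3% were, and none lower in either. Their medians were 1.24 and 0.79. On library totals the counts were 11 and 21, and the shares of all features moved the same way, to 12.8% and 28.0%. ATG34, a receptor gene of the starvation-type transport of vacuolar enzymes, read 8.58, 10.7, 102 and 45.2. Its heat shock ratios were 10.8-fold without rapamycin (5.19 to 33.5) and 3.96-fold with it (2.21 to 8.77), and ATG34 was the only one of the 31 past 2-fold lower with rapamycin in heat shock (2.23-fold, 1.53 to 3.35), where 2.46% of all features were. On library totals and on protein-coding totals 0 of the 31 were. ATG3, the gene of the conjugating enzyme that acts after Atg7, was 7.25-fold (4.23 to 14.8) and 3.29-fold (2.30 to 5.01) higher. ATG40, a receptor gene for the endoplasmic reticulum, was 4.59-fold and 3.75-fold higher. ATG21, the gene of a lipid-binding protein that helps to place the Atg8 machinery, led the list with rapamycin at 5.12-fold (3.70 to 7.60).

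By role, 10 of 13 genes of receptors and selective factors were past 2-fold higher in heat shock without rapamycin, where 19.8% of all features were. With rapamycin 10 of 13 were too, where 18.3% of all features were, but not the same 10. CUE5 passed only without rapamycin (158.7, 314.5, 388.3 and 308.4) and ATG36 only with it (20.02, 13.33, 28.49 and 32.67). The kinase complex and its scaffolds had 4 of 6 past 2-fold higher in both arms, where 723 of the 5642 features were. In the conjugation group 6 of 8 were past 2-fold higher without rapamycin (19.8% of all features) and 3 of 8 with it (18.3%). The gap between these counts depends on the scale. Library totals moved the median log2 ratio of all features to -0.42 without and 0.40 with rapamycin, which narrows it. ATG5 and ATG16, which encode the partners of Atg12 in the ligase of this group, differed between the arms. ATG5 read 30.0, 66.6, 76.5 and 59.6 and ATG16 7.15, 20.4, 19.5 and 11.5. They were the 2 genes of the 31 past 2-fold higher with rapamycin at 30 °C (2.18-fold, 1.35 to 3.79, and 2.63-fold, 1.06 to 9.63), a share near the 4.70% of all features. On library totals, on protein-coding totals and with a minimum mean of 20, 1 of the 31 was. Of the lipid kinase group 2 of 5 were past 2-fold higher in both arms, ATG14 and VPS30, while VPS34 and VPS15, which also serve vacuolar protein sorting, had log2 ratios of 0.12 to 0.95. ATG12, the ubiquitin-like protein gene of the conjugation group, stood at 27.2, 24.0, 28.5 and 27.9.

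**Figure D5:**
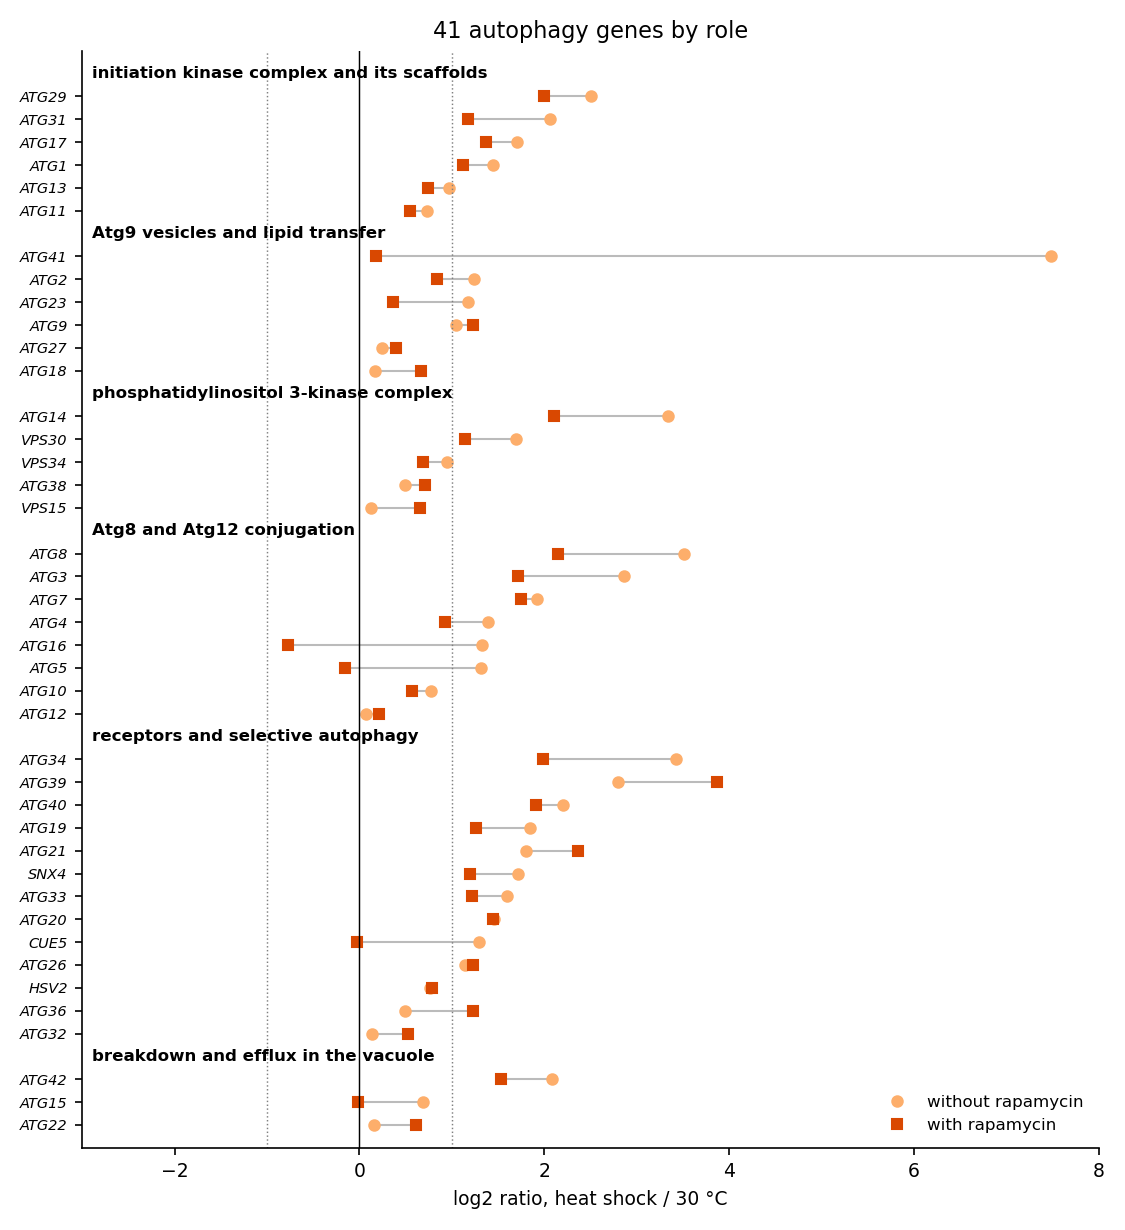
Heat shock log2 ratios of 41 autophagy genes by role, circles without and squares with rapamycin; the dotted lines mark 2-fold. No gene lies past 2-fold lower in either arm, and ATG41 has the widest gap.

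Of 3 cargo genes of the cytoplasm-to-vacuole route, 2 were past 2-fold higher in heat shock in both arms. Of all 5642 features, 723 were. APE1, a vacuolar aminopeptidase gene, read 127, 187, 840 and 739, and AMS1, a vacuolar mannosidase gene, 45.8, 46.2, 381 and 292. The third cargo gene, APE4, had log2 ratios of 0.65 and 0.31.

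Of 12 genes of regulators, 1 was past 2-fold higher and 4 lower in heat shock without rapamycin (19.8% and 19.3% of all features). With rapamycin 2 were higher and 1 lower (18.3% and 14.6%). UME6, the repressor gene named above, read 130.1, 79.1, 45.0 and 43.2. It was 2.85-fold lower in heat shock without rapamycin (1.896 to 4.53) and not past 2-fold lower with it. FKH1, a forkhead factor gene, was 4.74-fold lower without rapamycin (3.08 to 7.95) and 3.24-fold with it (2.35 to 4.68). PHO23, also named above as a repressor, read 38.6, 28.43, 47.98 and 49.96. SIN3 read 530.4, 564.1, 491.8 and 508.2 and RPD3 135.8, 199.9, 170.9 and 163.3. PHO23, SIN3 and RPD3 were not past 2-fold different in heat shock in either arm. RPH1 had log2 ratios of 0.39 without and 1.24 with rapamycin. GIS1, its paralog, read 206, 81.7, 514 and 542, past 2-fold lower with rapamycin at 30 °C. GCN4, the amino acid starvation activator gene, read 2475, 2247, 1165 and 1587, but Gcn4 is set largely by translation, which mRNA does not show. The part of these mRNA differences in those of the autophagy genes was not tested.

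As mRNAs known to respond when TORC1 is inhibited, 16 nitrogen catabolite genes were read beside the 10. In heat shock, 7 of the 16 were past 2-fold higher without rapamycin and 5 with it, and none lower. Of all features 19.8% and 18.3% were higher. At 30 °C, DAL3 (2.35-fold, 1.54 to 3.84) and UGA4 (from 3 reads, 2.20-fold, 0.671 to 13.7) were past 2-fold higher with rapamycin and none lower. Of all features 4.70% were higher and 4.02% lower. The list median at 30 °C was 0.24 and that of all features 0.01. GAP1, the general amino acid permease gene, read 560 without and 564 with rapamycin, and PUT4, a proline permease gene, 193 and 379. The part of TORC1 in the values of the autophagy genes was not tested.

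An additive count model of heat and rapamycin over the 4 libraries, fitted by edgeR's quasi-likelihood method and adjusted over all features (Benjamini-Hochberg), gave the 10 genes adjusted p-values for heat from 2.14e-07 (ATG39) to 0.0285 (ATG13), all higher, where 20.2% of features were called higher. Its rapamycin term called 0 of the 10, and 0.106% of features higher and 0.354% lower; at an unadjusted p under 0.05 it held 1 of the 10, ATG41, lower (edgeR, log2 -2.74, adjusted p 0.564). The model has 1 residual degree of freedom, counts an interaction such as that of ATG41 as error, and speaks of these 4 libraries only.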

How the data were processed

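RNA-seq of 1 yeast strain gave 1 library for each of 4 groups. The deposited table of the authors holds a signal: read counts per gene scaled by a factor of each library, given to 2 decimals. The values themselves show it: 100% of the values above 0 in every library were whole multiples of 1 step, within 0.0055. Per the submitters' processing notes the tools were TopHat and HTSeq and the build sacCer3, with no version. How strand was handled and where the factors come from was not given. The labels name total RNA, phenol and chloroform extraction and Illumina TruSeq libraries.

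Features with a mean of at least 5 were kept, and log2(value + 1) ratios were taken between libraries. With whole reads recovered, the edgeR 4.0.16 count test on 5642 features was run as an alternative. It called 1140 features higher and 1090 lower for heat, and 6 higher and 20 lower for rapamycin. Intervals of ratios are exact conditional binomial, those of differences of ratios conditional odds ratio intervals, and those of levels exact Poisson. Names, coordinates and sequences come from RefSeq R64. All 10 members and the 31 other autophagy genes matched by systematic name. Code ran in Python 3.11.15 with scipy 1.17.1 and was tested on simulated data.

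Genes named are the 10 members, the largest ratios in the other autophagy list, listed regulators, cargo and nitrogen catabolite genes, and the 3 nearest patterns to ATG41, ATG8 and ATG39. ATG12, VPS30, VPS34 and VPS15 in the role groups, GAP1, SSA4 as a motif control and the search 1000 bases upstream were chosen after values were seen. The members and lists were chosen with earlier results of these data known. Alternatives tried were scaling by library totals, by protein-coding totals and by TMM, pseudocounts of 0.25 and 5, no filter or a mean of 20, a 4-fold rule and the count test.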

Additional observations from a re-analysis of the deposited data

Results flagged for a closer look

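ATG41 was set apart because the same contrast went past 2-fold in opposite directions at 30 °C and in heat shock. Rapamycin against none gave a log2 ratio of 1.62 at 30 °C and -5.68 in heat shock, a difference of -7.31. The difference was not tested between cultures, since each group held 1 library. Over all kept features, 15 were past 2-fold higher with rapamycin at 30 °C and past 2-fold lower with it in heat shock.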

How the results depend on the processing

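No paired analysis was possible because each group held 1 library, and no library could be left out. Dividing by library totals shifted the median of all features to -0.42 (heat shock without rapamycin), 0.40 (with), -0.34 (rapamycin at 30 °C), 0.53 (rapamycin in heat shock) and 0.90 (difference of the heat shock ratios); protein-coding totals shifted it to -0.30, 0.24, -0.22, 0.37 and 0.62. Features past 2-fold higher and lower were then 723 and 1698, 1581 and 434, 114 and 582, 868 and 75, and 2472 and 131, against 1115 and 1089, 1034 and 825, 265 and 227, 257 and 139, and 522 and 468 on the deposited scale. Of the 10 genes, 8 and 9 were then past 2-fold higher in heat shock without and with rapamycin. For the difference of heat shock ratios, 2 genes were higher (43.8% of all features) and 1 lower (2.32%) on library totals, 1 was lower (3.21%) on protein-coding totals, and 0 were higher (7.05%) with a pseudocount of 5. Under the 4-fold rule 5 genes were higher in heat shock without rapamycin (7.85% of all features), 3 with it (6.31%), 0 with rapamycin at 30 °C (0.691%), and in the difference 0 were higher (1.33%) and 1 lower (1.77%). The count test called 0 genes for rapamycin in either direction; its rapamycin term for ATG41 was -2.74, opposite to the 30 °C ratio, because the additive model averages both temperatures. Of 88 alternatives of the counts, 77 stayed within 1.5 times. Of 290 alternatives of the single ratios, 273 stayed within the counting interval. At 30 °C without rapamycin ATG14, ATG41 and ATG8 had 3, 8 and 9 reads, which leaves their heat shock folds in that arm with wide intervals.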
